A study of Homo sapiens with 7 samples.

Results

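The genes described here are those whose symbol begins with ZNF and a digit, the human genes named for zinc finger proteins. GENCODE 44 holds 515 protein-coding genes with such a symbol, 249 of them on chromosome 19. Nascent transcription over the gene body could be measured for 36 of them, out of 2121 genes located in all, and 16 of the 36 lie on chromosome 19. An index of splicing was deposited for 88 introns of 60 genes with a ZNF symbol, out of 6709 introns of 2979 genes, and 33 of the 88 lie on chromosome 19. The 60 include 2 antisense genes, a pseudogene and a readthrough gene, which together hold 5 of the introns. Only 10 genes have both measures, so the body signal and the splice index describe largely separate samples of the family.

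Most ZNF proteins bind DNA through tandem C2H2 zinc fingers, and the largest class also carries a KRAB domain at its start. The KRAB domain recruits the corepressor TRIM28, which brings in the histone H3 lysine 9 methyltransferase SETDB1 and HP1 proteins, and many KRAB proteins silence transposable elements in this way. Genes of this class lie in tandem clusters, above all on chromosome 19, and usually encode all fingers in a single long last exon. Other ZNF genes have nothing to do with KRAB repression and serve, for example, in ribosome assembly or at the kinetochore.

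RPE1 cells are a human retinal pigment epithelial line immortalised with telomerase, and every group studied here was the iCas9 line with p53/puro-dKO. The groups were WT (3 libraries), CFAP20-KO (3 libraries) and a rescue, CFAP20-KO + CFAP20-GFP (1 library). CFAP20 is a small cilia and flagella associated protein, and the series asked how it affects transcription where transcription meets replication. All cells were labelled with 2 mM bromouridine for 30 min, so that the sequenced RNA was made within that time. The labels do not say whether libraries of a group came from separate cultures, or whether the CFAP20-KO line was 1 clone, so the p-values rest on how far these libraries spread, which may be technical.

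The body signal was read from windows of 100 kb to each side of replication origins mapped by OK-seq, for genes on the strand of the window. These windows exist for WT and CFAP20-KO only. The signal is the authors' scaled coverage per 200-bp bin and the depth behind it is unknown. The smallest signal above 0 was 0.0733 in the second WT library and 0.393 in the first CFAP20-KO library, and this step sets the precision of low genes. A run number in the column names of the splice table puts WT replicate 1 with CFAP20-KO replicate 1, and WT replicate 3 with CFAP20-KO replicates 2 and 3. WT replicate 2 shares its run number with the rescue only. The line's own markers were thinly covered. Of 11 genes of retinal pigment epithelium, RLBP1 was the 1 with body signal, at a mean of 0.219 in WT and 0.0552 in CFAP20-KO, and OTX2 had 2 introns. Of the genes of other cell types, 2 neuronal genes had body signal, MAP2 at 1.63 in WT and 0.721 in CFAP20-KO and SYT1 at 2.54 and 2.37. Epithelial and mesenchymal genes had introns only (KRT8 and KRT18, and FN1, VIM and PDGFRB), and 5 blood cell genes had no value. Whether these levels bear on any ZNF result was not tested.

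Most ZNF genes stood above the median located gene in body signal. The median body signal over the 36 genes was 6.51, 5.68 and 6.81 in WT replicates 1, 2 and 3, against 2.73, 3.06 and 2.88 over the 1785 genes tested. In CFAP20-KO it was 5.11, 5.02 and 4.86, against 2.91, 3.51 and 3.53. The ZNF median was therefore lower in every CFAP20-KO library than in any WT library, while the median of all genes was not. The lower median did not hold in all parts of the family. Over 10 neighbouring genes at the distal end of chromosome 19 it was 7.24, 5.47 and 7.08 in WT. In CFAP20-KO the median of these 10 was 4.61, 3.46 and 3.14. The median of the 6 other genes of chromosome 19 was higher in CFAP20-KO, at 13.47, 10.97 and 10.06 against 7.99, 8.22 and 8.81 in WT. For the 20 genes elsewhere the library medians of the groups overlapped. In WT, 29 of the 36 stood above the median of all genes tested, and all 36 passed the filter on low signal. The genes themselves are short: their median length was 23136.5 bp, against 56949.0 bp for all genes, with 4.5 exons against 10.0.

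**Figure D1:**
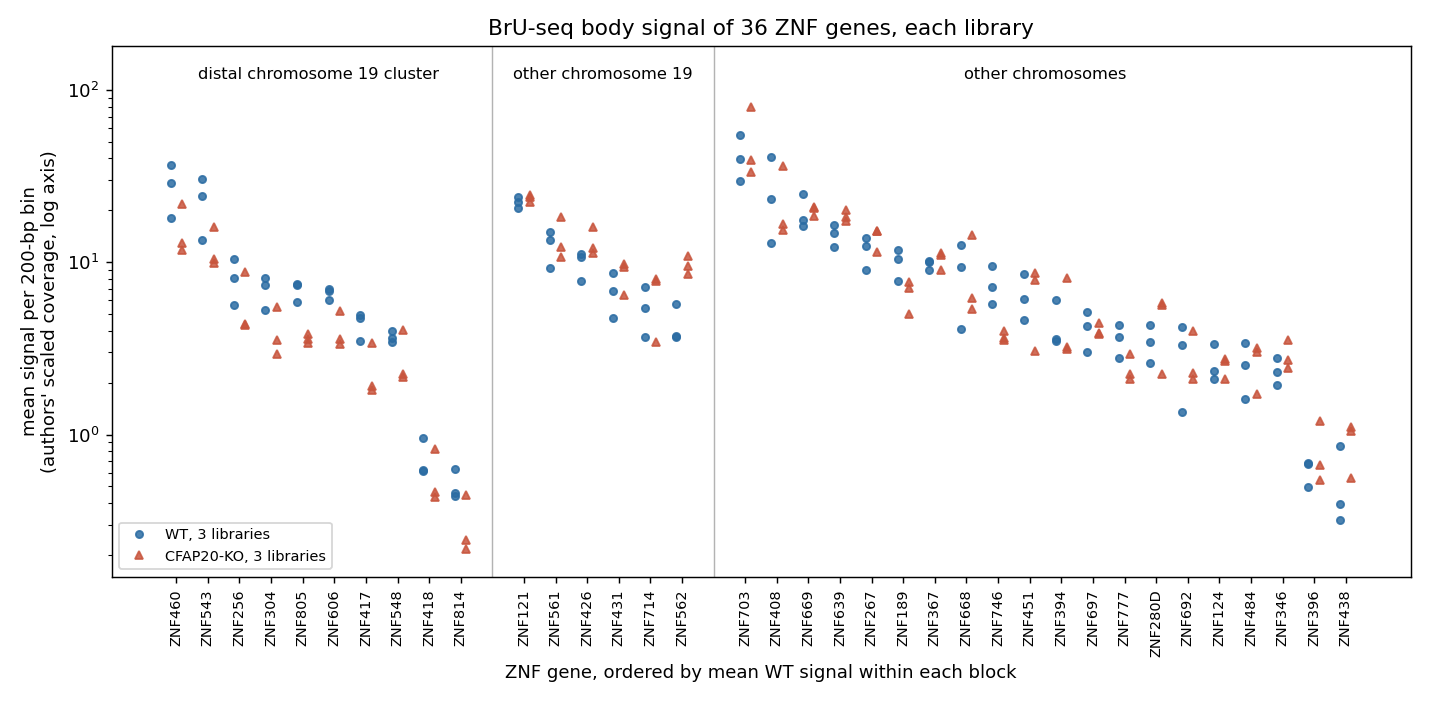
Body signal of the 36 ZNF genes (mean signal per 200-bp bin, log axis) in each WT library (circles) and CFAP20-KO library (triangles), in 3 blocks: 10 genes at the distal end of chromosome 19, 6 other genes of chromosome 19 and 20 genes of other chromosomes. The triangles of the first block sit mostly below the circles, those of the 6 other chromosome 19 genes are higher on average, and those of the 20 genes elsewhere lie on either side.

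The strongest member was ZNF703, which encodes a corepressor of the NET family without a KRAB domain. Its signal was 55.0, 29.6 and 39.9 in WT and 79.6, 39.1 and 33.6 in CFAP20-KO, and the groups overlapped. ZNF460, a KRAB gene of distal chromosome 19, followed with 36.6, 18.1 and 28.7 in WT and 21.7, 12.9 and 11.8 in CFAP20-KO. ZNF408, which is mutated in inherited retinal disease, had 40.5, 13.0 and 23.3 in WT and 36.3, 16.7 and 15.4 in CFAP20-KO. In all 3 genes the first replicate of each group was the highest and the spread between libraries was wide, and neighbours in this order differed by about their SDs or less. ZNF543 came next, at a WT mean of 22.8 ± 8.64 (SD, n = 3), and ZNF814 was the weakest at 0.509 ± 0.103 (SD, n = 3).

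The median signal of the 16 genes on chromosome 19 was 7.24, 5.93 and 7.10 in WT and 5.97, 6.11 and 6.14 in CFAP20-KO. That of the 20 genes elsewhere was 5.31, 4.61 and 5.20 in WT and 4.21, 4.78 and 4.68 in CFAP20-KO. The chromosome 19 members had the higher median in all 6 libraries. The 38 other tested genes of chromosome 19 varied far more between libraries, with medians of 8.33, 2.34 and 6.05 in WT, and the part of this in any result on chromosome 19 was not tested.

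No ZNF gene passed the test between CFAP20-KO and WT. With limma on 3 against 3 libraries and Benjamini-Hochberg adjustment, 0 of 36 ZNF genes were called in either direction, beside 0% higher and 0% lower over all genes tested. At an unadjusted p below 0.05 stood 6 ZNF genes and 158 of the 1785 genes. The smallest adjusted p of limma was 0.317 among ZNF genes and 0.0657 over all genes. The median log2 change of the 36 was 0.0009, against 0.17 over all genes, with 18 above and 18 below 0, where 66.9% of all genes were above 0 and 33.1% below. The change in the median level differed from this, at -0.34 between the means of the library medians of log2 signal. In 3 ZNF genes all CFAP20-KO libraries were higher than all WT libraries, beside 13% of all genes, and in 5 all were lower, beside 5.49%.

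The count of 0 rests on a fit that leaves the run out. With the run number as a covariate, limma called 1 ZNF gene higher and 9 lower at an adjusted p below 0.05, beside 8.68% of all genes higher and 5.83% lower. With libraries also centred on their medians, the calls over all genes were 23 higher and 84 lower, and those of ZNF genes 0 and 6, so that ZNF562, ZNF304, ZNF417 and ZNF606 were no longer called. In the fits with the run WT replicate 2 carries no weight, because its run has no CFAP20-KO library. Their spread rests on the difference between CFAP20-KO replicates 2 and 3, which share a run and may differ only technically. It rests also on how the change differs between the runs that hold both groups. With so few libraries, the adjusted p-values of these fits are uncertain. Of the 10 genes called with the run and without centring, 7 lie on chromosome 19. They were ZNF562 in the higher direction, and ZNF805, ZNF460, ZNF543, ZNF304, ZNF417 and ZNF606 in the lower. The other 3, all lower, were ZNF746 and ZNF777 on chromosome 7 and ZNF189 on chromosome 9.

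On chromosome 19 the direction went with position. Runs of measured ZNF genes less than 2 Mb apart formed 3 clusters: 4 genes at chr19:9523223-9675100, 2 genes at chr19:21082159-21196053 and 10 genes at chr19:57240632-58003349 (hg38). All 10 genes of the distal cluster were lower in CFAP20-KO, with log2 changes from -0.92 to -0.34 and a median of -0.77. The 6 genes of the other clusters were all higher, with changes from 0.082 to 1.14 and a median of 0.27, where 66.9% of all genes were above 0. Within runs, 3 of these 6 were above 0 in both, and ZNF561 was at -0.035 with the run as a covariate. The median over the 16 genes, -0.47, is taken over both, and that of the 20 genes on other chromosomes was 0.046. The 10 genes were read from 2 origin windows, the 4 genes of the proximal cluster from 1, so they are not independent samples of a family. The clusters were compared after their values were seen, and their difference was not tested.

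**Figure D2:**
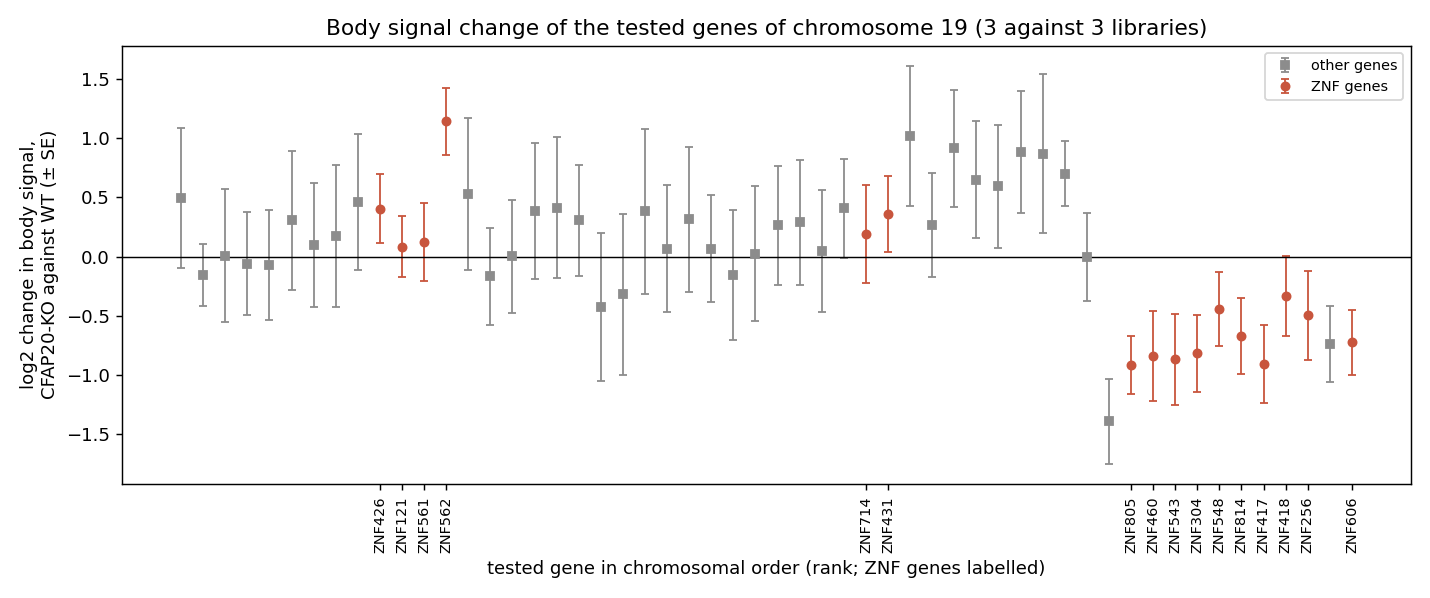
Log2 change in body signal, CFAP20-KO against WT (± SE, 3 against 3 libraries), of the tested genes of chromosome 19 in chromosomal order by rank. The 10 ZNF genes at the distal end, AURKC just before them and C19orf18 among them lie below 0, while the 6 ZNF genes further up lie above 0.

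Inside the distal cluster the ratio of CFAP20-KO to WT means ran from 0.522 in ZNF805 to 0.787 in ZNF418, a weak gene. ZNF805, a KRAB gene, measured 7.46, 5.86 and 7.36 in WT and 3.84, 3.40 and 3.56 in CFAP20-KO, so the groups did not overlap. Its log2 change was -0.92 (SE 0.25, limma adjusted p = 0.344) and, with the run as a covariate, -1.01 (limma adjusted p = 0.0265). ZNF417 had 4.97, 4.73 and 3.51 in WT and 3.41, 1.92 and 1.82 in CFAP20-KO, which also do not overlap, though by a small margin. ZNF606 had 7.02, 6.002 and 6.80 in WT against 5.197, 3.58 and 3.35 in CFAP20-KO, again without overlap.

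ZNF304, also a KRAB gene, had 8.11, 5.30 and 7.38 in WT and 5.50, 3.52 and 2.93 in CFAP20-KO. The groups overlapped only through WT replicate 2, the library with no CFAP20-KO partner in its run. ZNF543 overlapped in the same way, at 30.6, 13.5 and 24.3 in WT and 16.0, 10.4 and 9.88 in CFAP20-KO. With the run as a covariate its log2 change was -1.12 (limma adjusted p = 0.0265) and that of ZNF460 was -1.02 (limma adjusted p = 0.0287).

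The remaining members were ZNF548, ZNF814, ZNF418 and ZNF256, with ratios of CFAP20-KO to WT means of 0.761, 0.595, 0.787 and 0.725. Their groups overlapped and none was called in the fit with the run. Within runs, 9 of the 10 genes were below 0 in both. ZNF548 was the exception, at 0.14 in the run of the first replicates and -0.83 in that of WT replicate 3. The median change of the 10 genes was -0.48 in the former and -0.92 in the latter run, where all tested genes had medians of 0.051 and 0.19. ZNF417 has a near-identical paralogue nearby, and how reads shared by such copies were placed is not stated by the labels, so its values are uncertain.

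Lower signal was also measured in genes of that stretch that are not ZNF genes, though both were weak. Within 2 Mb of the cluster 2 other genes were tested, and both were lower. AURKC, an aurora kinase of meiosis, had 0.561, 0.861 and 0.341 in WT and 0.188, 0.125 and 0.196 in CFAP20-KO, a log2 change of -1.39 (SE 0.36, limma adjusted p = 0.344). C19orf18 had 0.495, 0.613 and 0.320 in WT and 0.339, 0.21 and 0.21 in CFAP20-KO, and its groups overlapped. Its log2 change was -0.74 (SE 0.32, limma adjusted p = 0.560). The smallest signal above 0 was 0.3 in WT replicate 1 and 0.393 in CFAP20-KO replicate 1, so the changes of these 2 genes are uncertain. The other 38 genes of chromosome 19 that are not members, these 2 included, had a median change of 0.26, with 28 above and 10 below 0. With the run as a covariate that median was -0.11.

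The distal genes were lower along the whole body. With the body cut into 10 equal parts, their median log2 change was -1.13 in the part at the start, between -0.40 and -0.83 in the parts that follow, and -0.96 in the part at the end. At least 9 of the 10 genes were below 0 in every part. The other 26 ZNF genes had medians between -0.093 and 0.39. In WT the median signal of those 26 went from 13.7 in the part at the start to 3.72 in the part at the end, and that of the distal genes from 8.77 to 4.40.

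**Figure D3:**
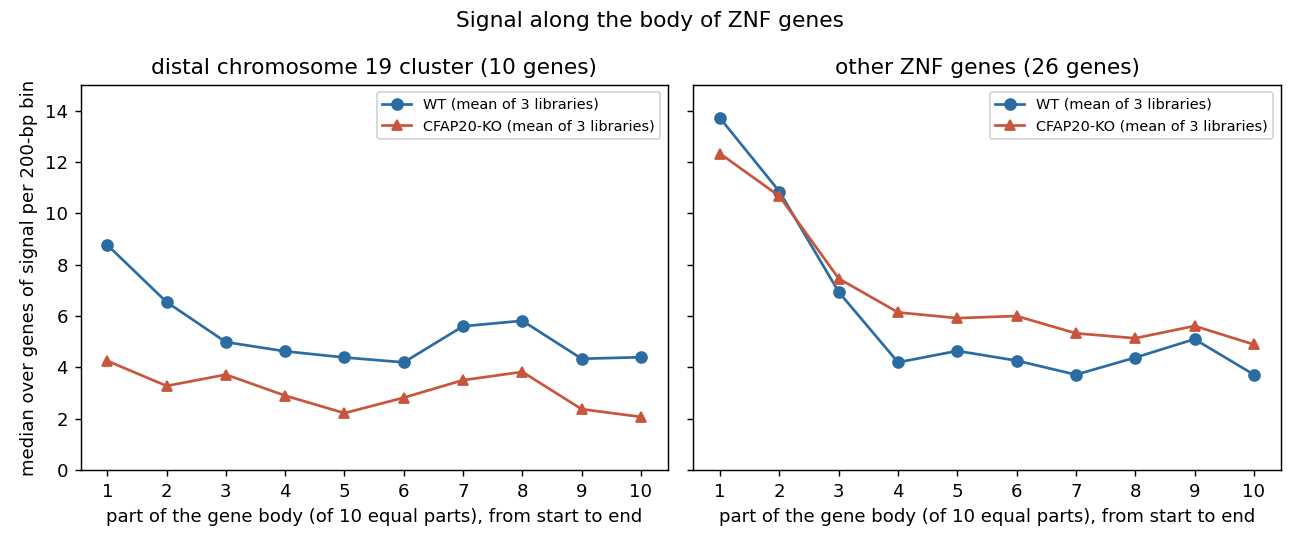
Median signal per 200-bp bin in 10 equal parts of the gene body, for the 10 ZNF genes of distal chromosome 19 (left) and the 26 others (right), as means of 3 WT (circles) and 3 CFAP20-KO libraries (triangles). The CFAP20-KO line lies below WT in every part on the left, and the lines cross on the right.

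Short words were looked up in the promoters of the distal genes. RefSeq promoters (GRCh38.p14, 250 bases before to 50 after a start) matched 9 of the 10 genes in 10 entries, ZNF417 being the one without an entry. The word ACCCAGAA, searched on both strands and chosen after these promoters had been read, stood in 6 of the 10 entries (60%). It stood in 6.51% of the 307 promoter entries of ZNF genes on chromosome 19, in 0.588% of the 340 elsewhere and in 1.71% of all 35116. Because the word was chosen from the distal entries, their share is not a test of enrichment. They also supply 6 of the 20 chromosome 19 ZNF entries that hold the word. The word CCGGAAG, the core bound by ETS factors, does not overlap ACCCAGAA. It stood in 60% of the distal entries, 40.4% of chromosome 19 ZNF entries, 27.1% of other ZNF entries and 10.3% of all. TATAAA stood in none of the 10, in 4.33% of ZNF entries and in 11.5% of all. The stretches from 180 to 31 bases before the start are shown for 6 genes, to let those with ACCCAGAA be set beside those without, with both words on either strand in capitals:
ZNF256 (chr19:57947737-57947886, minus strand): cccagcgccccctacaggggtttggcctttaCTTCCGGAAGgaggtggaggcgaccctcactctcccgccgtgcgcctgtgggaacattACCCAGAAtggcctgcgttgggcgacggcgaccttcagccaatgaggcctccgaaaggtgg
ZNF418 (chr19:57935433-57935582, minus strand): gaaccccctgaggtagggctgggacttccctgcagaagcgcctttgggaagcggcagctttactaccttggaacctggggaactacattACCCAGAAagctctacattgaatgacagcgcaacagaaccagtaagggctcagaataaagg
ZNF548 (chr19:57389674-57389823, plus strand): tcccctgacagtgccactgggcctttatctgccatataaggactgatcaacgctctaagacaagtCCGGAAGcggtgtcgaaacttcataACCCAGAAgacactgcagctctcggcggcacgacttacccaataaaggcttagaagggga
ZNF304 (chr19:57351091-57351240, plus strand): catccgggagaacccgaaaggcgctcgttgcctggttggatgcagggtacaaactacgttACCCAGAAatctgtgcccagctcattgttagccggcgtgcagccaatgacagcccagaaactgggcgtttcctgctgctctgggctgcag
ZNF805 (chr19:57240452-57240601, plus strand): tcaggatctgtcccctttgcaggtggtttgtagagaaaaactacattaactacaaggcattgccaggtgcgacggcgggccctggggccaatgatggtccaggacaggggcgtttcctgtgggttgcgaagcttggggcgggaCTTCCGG
ZNF543 (chr19:57320292-57320441, plus strand): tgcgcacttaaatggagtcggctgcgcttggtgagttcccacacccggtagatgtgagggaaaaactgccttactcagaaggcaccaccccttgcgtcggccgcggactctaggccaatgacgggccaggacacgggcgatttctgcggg
In ZNF256 and ZNF418 the word begins 91 bases before the start, in ZNF548 90 and in ZNF304 120. ZNF805, with the most negative change of the cluster in the fit without the run, holds the ETS word only. ZNF543, with the most negative change when the run is a covariate, holds neither word in this stretch. ZNF418, with the least negative change in both fits, holds ACCCAGAA only. Whether the words bear on the changes was not tested. A match is a description of the letters, not a site.

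The proximal cluster held the largest positive change among the 36 genes. ZNF562, a KRAB gene, had 3.74, 3.68 and 5.75 in WT and 10.9, 9.45 and 8.51 in CFAP20-KO, with no overlap. Its log2 change was 1.14 (SE 0.28, limma adjusted p = 0.317) and, with the run as a covariate, 1.02 (limma adjusted p = 0.0483), or 0.81 (limma adjusted p = 0.142) with libraries centred too. ZNF426 beside it had 11.2, 7.81 and 10.8 in WT and 16.1, 12.1 and 11.3 in CFAP20-KO. Those groups did not overlap either, at a log2 change of 0.40 (SE 0.29, limma adjusted p = 0.811). ZNF121 and ZNF561, in the same window, were at 0.082 and 0.12, and their groups overlapped. Overlap with a gene on the opposite strand, present for 14 of the 36 members and for ZNF562, was kept because the tables hold 1 strand. In the middle cluster ZNF714 and ZNF431 had changes of 0.19 and 0.36.

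Among the 20 genes of other chromosomes the log2 changes ran from -0.96 to 0.77. The most negative was that of ZNF746 on chromosome 7, also known as PARIS, a KRAB repressor that the ubiquitin ligase parkin marks for degradation. It had 9.47, 5.71 and 7.16 in WT and 3.63, 3.55 and 3.97 in CFAP20-KO, without overlap. Its log2 change was -0.96 (SE 0.28, limma adjusted p = 0.427) and -1.11 with the run as a covariate (limma adjusted p = 0.0265).

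ZNF777, its neighbour, had a change of -0.55 (SE 0.29) and overlapping groups. Here too the non-member neighbours were lower: EZH2, the H3 lysine 27 methyltransferase, at -0.93 (SE 0.38) and RHEB, the small GTPase that activates mTORC1, at -0.86 (SE 0.29). They are the only other tested genes within 2 Mb, and in both all CFAP20-KO libraries were below all WT libraries.

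ZNF189 on chromosome 9 had 7.76, 11.7 and 10.4 in WT and 5.03, 7.13 and 7.73 in CFAP20-KO, with the highest CFAP20-KO library just below the lowest WT library. ZNF639 on chromosome 3, also called ZASC1, was the 1 member off chromosome 19 with all CFAP20-KO libraries above WT, at 14.7, 12.2 and 16.5 in WT and 17.4, 19.98 and 18.4 in CFAP20-KO. The changes were -0.59 (SE 0.30, limma adjusted p = 0.618) for the former and 0.37 (SE 0.27, limma adjusted p = 0.811) for the latter. ZNF438 had the largest positive change off chromosome 19, 0.77 (SE 0.42), where its mean went from 0.526 (WT) to 0.907 (CFAP20-KO), both low.

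All located genes lie in origin windows by construction, and within these the distance of the start from the origin centre varied. The start lay within 25 kb of the origin centre in 5 of 16 genes on chromosome 19 (31.3%), in 12 of 20 elsewhere (60.0%) and in 60.1% of all tested genes. The last exon was long, with a median of 3017 bp over the 36, of 4452 bp over the 16 on chromosome 19 and of 2062 bp over all genes. ZNF431 had the longest, at 13431 bp.

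The balance between the start and the rest of a gene was compared as well. The median log2 ratio of the first 2 kb to the rest, over 30 ZNF genes of at least 10 kb, was 1.71, 0.45 and 1.20 in WT and 1.37, 0.66 and 0.62 in CFAP20-KO. Over all 1652 genes it was 1.77, 0.78 and 1.47 in WT and 1.51, 0.84 and 0.87 in CFAP20-KO, so WT replicate 2 was apart from the other WT libraries in both sets. The median change was -0.26 in ZNF genes and -0.27 in all genes. Limma called 0 of the 30, beside 0% higher and 0% lower over all genes, and 0 ZNF genes and 48 of all genes stood at an unadjusted p below 0.05. With the replicate number as a block limma called 0.303% of all genes higher and 0.726% lower, again with 0 ZNF genes. With the run as a covariate 6 ZNF genes were called lower, beside 13.8% of all genes, and 0 higher, beside 0.726%.

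The splice index of an intron is a fraction from 0 to 1. It is read here as higher where more of the RNA is spliced, but its exact definition and its minimum of reads are not stated by the labels. The median over ZNF introns was 0.313, 0.470 and 0.372 in WT and 0.249, 0.358 and 0.414 in CFAP20-KO, against 0.530, 0.691 and 0.642 in WT and 0.508, 0.703 and 0.676 in CFAP20-KO over all introns. The 33 introns of chromosome 19 had medians of 0.310, 0.468 and 0.389 in WT, and the 55 elsewhere 0.316, 0.472 and 0.368. The other 602 introns of chromosome 19 had medians of 0.615, 0.842 and 0.759 in WT, above the ZNF introns of the same chromosome in every library.

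ZNF introns differed from the rest in kind. First introns made up 52.3% of ZNF introns and 24.8% of all introns, and first introns had the lowest indices in both. Within each class the ZNF median was also the lower in WT. The median index was 0.298 against 0.338 for first introns, 0.557 against 0.719 for internal introns and 0.474 against 0.603 for last introns. By length it was 0.321 against 0.619 under 1 kb, 0.411 against 0.628 from 1 to 5 kb and 0.455 against 0.646 from 5 kb. The length classes were not matched for position. First introns made up 48.6% of ZNF introns under 1 kb against 21.6% of all, and 58.5% against 27.2% from 1 to 5 kb. From 5 kb the shares were 40% and 39.5%. How much of the difference by length goes with position was not tested. The order of ZNF introns and all introns was not the same by chromosome. Chromosome 19 first introns of ZNF genes were lowest, at 0.213, and those elsewhere were at 0.360, above the 0.338 of all first introns. Last introns went the other way, at 0.669 in the 6 of chromosome 19, above the 0.603 of all last introns, and at 0.311 in the 8 elsewhere.

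**Figure D4:**
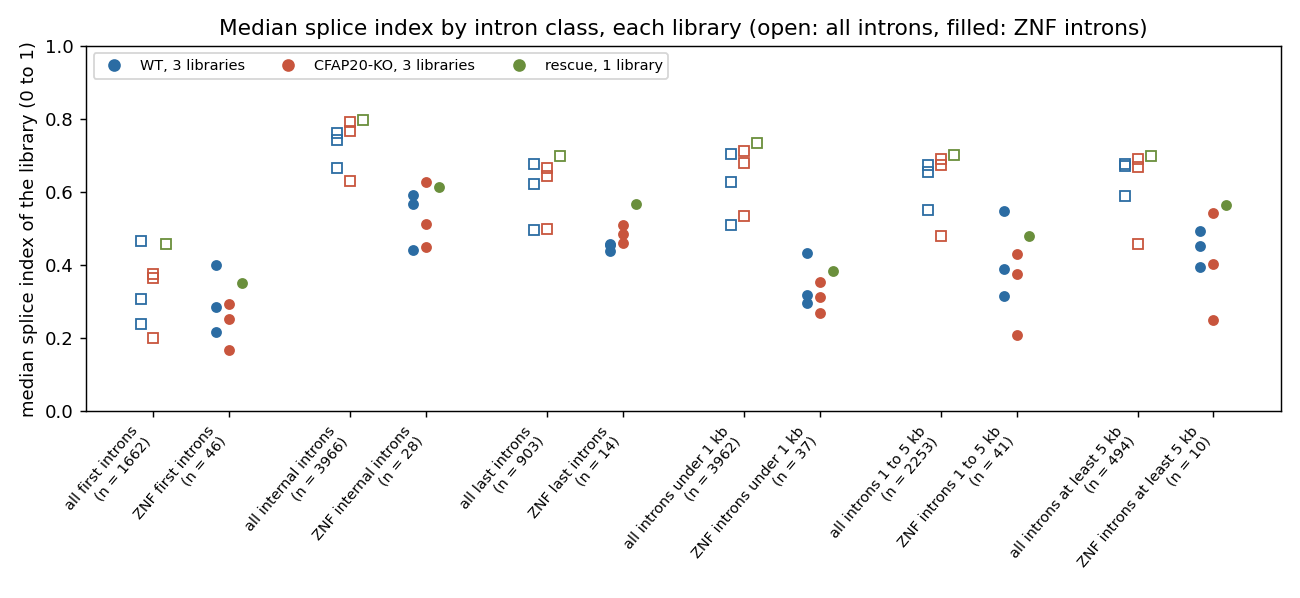
Median splice index (0 to 1) of each WT, CFAP20-KO and rescue library by position and by length of the intron, for all introns (open squares) and ZNF introns (filled circles). CFAP20-KO replicate 1 has the lowest point among introns of at least 5 kb in both sets, and the WT and CFAP20-KO points overlap in most classes.

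Single members covered the whole scale. ZNF574 intron 1 had the highest index, 0.944, 0.966 and 0.982 in WT and 0.904, 0.930 and 0.966 in CFAP20-KO. ZNF207, which encodes the kinetochore and spindle protein BuGZ, followed with intron 3 at a WT mean of 0.882 ± 0.0384 (SD, n = 3) and intron 2 at 0.868 ± 0.0192 (SD, n = 3). At the other end ZNF575 intron 1 was listed at 0 in all 6 libraries and at 0.0213 in the rescue. ZNF263 intron 2 was at most 0.0155 in any library, and intron 1 of the antisense gene ZNF213-AS1 at chr16:3133195-3134629 had a WT mean of 0.0265. The depth per intron is unknown, so no upper limit can be put on these low values.

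In ZNF121 the 3 introns ran from 0.0759 to 0.817 in WT. Over 20 genes with 2 or more tested introns, the WT means of 4 spanned more than 0.3.

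Splice sites printed with 3 exon bases in lower case and 6 intron bases in capitals show a feature of first introns in this family. In 10 of 46 first introns of ZNF genes (21.7%) the exon ends in ATG just before the intron's G, against 3.16% of 1616 first introns of other genes. On chromosome 19 it was 7 of 18 (38.9%), and elsewhere 3 of 28 (10.7%). In 5 of the 38 first introns with a coding transcript, all on chromosome 19, this ATG is the annotated start codon, so that the first coding exon contributes the start codon and nothing more. The share in other genes was 2.30%. The donors of these 5 are shown because they carry that start codon:
ZNF430 (chr19:21020801-21020809, plus strand): atgGTGAGA
ZNF431 (chr19:21142184-21142192, plus strand): atgGTGAGA
ZNF708 (chr19:21329204-21329212, minus strand): atgGTGAGA
ZNF414 (chr19:8514038-8514046, minus strand): atgGTGAGC
ZNF564 (chr19:12551324-12551332, minus strand): atgGTGCGT
ZNF430, ZNF431 and ZNF708 share all 9 bases and lie in the same stretch of the chromosome. The same 9 bases stand at intron 1 of ZNF680 on chromosome 7, so they are not particular to that stretch. The letters GTGAG open 54.3% of ZNF first introns and 31.4% of all first introns.

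The 10 first introns with ATG before the intron had a median WT index of 0.165, and the other ZNF first introns 0.330. The order was not the same everywhere: on chromosome 19 the medians were 0.252 with the feature and 0.210 without, and in other genes 0.418 and 0.338. ZNF564 intron 1 had 0.0161, 0.141 and 0.0556 in WT and 0.0182, 0.0761 and 0.0469 in CFAP20-KO. ZNF431 intron 1 had 0.323, 0.503 and 0.391 in WT and 0.209, 0.387 and 0.430 in CFAP20-KO. In both genes the groups overlapped.

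No ZNF intron passed the test between CFAP20-KO and WT. Of 82 ZNF introns with a value in all 6 libraries, limma called 0 in either direction, beside 0% of the 6537 introns tested in each direction, and the count was also 0 with the run as a covariate. At an unadjusted p below 0.05 stood 7 ZNF introns and 373 of all introns. The median change was -0.024 over ZNF introns, -0.030 over the 30 on chromosome 19 and -0.015 over the 52 elsewhere, against 0.000 over all. With the run as a covariate it was -0.004 for ZNF introns. Of the 82, 49 were below 0 and 32 above, where 48.8% of all introns were below and 48.6% above. In 13 introns of 11 genes all CFAP20-KO libraries were below all WT libraries, beside 5.14% of all introns, and in 5 all were above, beside 5.92%. Of the 13, 5 lay on chromosome 19, and of the 5, 0 did.

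**Figure D5:**
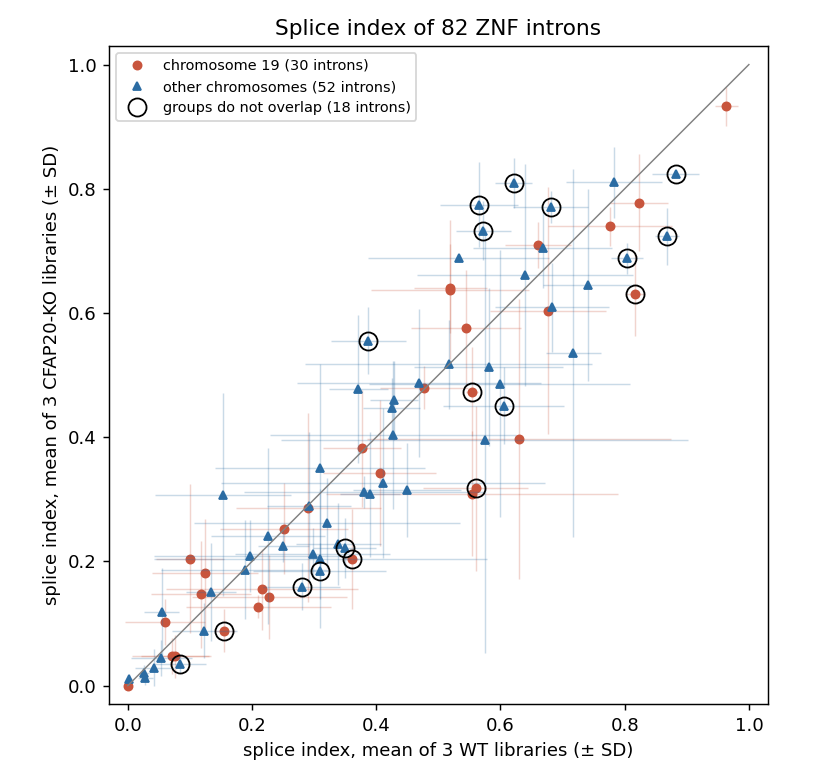
Mean splice index in 3 CFAP20-KO libraries against that in 3 WT libraries (± SD) for the 82 ZNF introns, by chromosome, with the diagonal of no change. The 18 ringed introns are those whose groups do not overlap, 13 below the diagonal and 5 above.

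The 5 introns with all CFAP20-KO libraries above WT came from 3 genes. ZNF622, a factor in the maturation of the large ribosomal subunit, supplied 3 of the 5, and these are all of its tested introns. Its intron 3 had 0.50, 0.571 and 0.625 in WT and 0.848, 0.714 and 0.761 in CFAP20-KO, a change of 0.209 (SE 0.0695, limma adjusted p = 0.853). Intron 1 had 0.594, 0.652 and 0.617 in WT and 0.796, 0.854 and 0.777 in CFAP20-KO, a change of 0.188 (SE 0.0560, limma adjusted p = 0.833). Intron 4 had a change of 0.160 (SE 0.0649, limma adjusted p = 0.853). The rescue stood at 0.707, 0.692 and 0.670 in introns 3, 1 and 4, below every CFAP20-KO library in each and above every WT library.

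Their donors are printed because all 3 introns are among these 5:
ZNF622 intron 1 (chr5:16465035-16465043, minus strand): acgGTGATG
ZNF622 intron 3 (chr5:16463102-16463110, minus strand): tagGTAAGC
ZNF622 intron 4 (chr5:16458511-16458519, minus strand): ctgGTAAGT
The other gene by the naming rule was ZNF436, a KRAB gene of chromosome 1, whose intron 2 had 0.393, 0.444 and 0.324 in WT and 0.615, 0.512 and 0.538 in CFAP20-KO. Its rescue value was 0.549, inside the range of CFAP20-KO. Introns of 1 gene share their transcripts, so the 3 introns of ZNF622 are not 3 independent cases.

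Among the 13 introns with all CFAP20-KO libraries below WT, the largest difference was in intron 6 of ZNF557, a KRAB gene of chromosome 19. It had 0.633, 0.468 and 0.579 in WT and 0.167, 0.367 and 0.419 in CFAP20-KO, a change of -0.242 (SE 0.0942, limma adjusted p = 0.853). The rescue, at 0.346, lay within the range of CFAP20-KO. ZNF121 intron 2 at chr19:9568176-9569001 had 0.833, 0.813 and 0.803 in WT and 0.588, 0.595 and 0.707 in CFAP20-KO, a change of -0.187 (SE 0.0588, limma adjusted p = 0.833), and the rescue was at 0.892, above all WT libraries. ZNF675 encodes a zinc finger protein that binds TRAF6, and its intron 1 had 0.370, 0.365 and 0.348 in WT and 0.116, 0.223 and 0.273 in CFAP20-KO, with the rescue at 0.465. ZNF3 intron 5 had 0.505, 0.611 and 0.70 in WT and 0.381, 0.470 and 0.50 in CFAP20-KO, with the rescue at 0.599.

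ZNF207 intron 2 was lower as well, at a change of -0.144 (SE 0.0465, limma adjusted p = 0.840), with a rescue value of 0.895. In 8 of the 13 lower introns the single rescue library lay above every CFAP20-KO library, and in 3 of the 5 higher introns below every one. The median over all introns was 0.723 in the rescue, above the 0.508, 0.703 and 0.676 of CFAP20-KO. The share of all introns with the rescue above or below every CFAP20-KO library was not counted, so these counts are not read as restoration. The rescue shares its run with WT replicate 2 and with no CFAP20-KO library, so run and rescue cannot be told apart here. Against WT replicate 2 the rescue had a median difference of 0.0042 over 87 ZNF introns, with 45 above and 41 below 0, and of 0.0142 over all introns.

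The 10 genes with both measures showed no common pattern. In the distal cluster ZNF460 and ZNF543 had log2 changes in body signal of -0.84 and -0.87, while the mean differences in splice index over their 2 tested introns each were 0.0186 and 0.0833. ZNF561 had a body change of 0.12 and an index change of -0.233 in its 1 intron, and ZNF121 had 0.082 and a mean of -0.100 over 3. ZNF703 and ZNF408 had index changes of 0.0279 and 0.155 and body changes of 0.23 and -0.13. With 1 intron in 5 of the 10 genes, no correlation is given.

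The partners of KRAB proteins were measured from a list of 44 corepressor and heterochromatin genes. In body signal 10 of them were tested and 10 were above 0, beside 66.9% of all genes, with a median log2 change of 0.46 against 0.17 over all genes. Limma called 0 of the 10, and 3 were called higher with the run as a covariate, beside 8.68% of all genes, among them ATRX, the chromatin remodeller, and CBX1, which encodes HP1 beta. CBX1 had 8.95, 6.77 and 7.07 in WT and 18.5, 12.2 and 9.96 in CFAP20-KO, and its log2 change with the run was 0.81 (limma adjusted p = 0.0445). ATRX had 1.24, 2.19 and 1.26 in WT and 2.28, 2.42 and 2.52 in CFAP20-KO, with a log2 change of 0.90 in that fit (limma adjusted p = 0.0265). In both genes the groups did not overlap. Without the run, the log2 change was 0.79 (SE 0.31, limma adjusted p = 0.509) for CBX1 and 0.65 (SE 0.30, limma adjusted p = 0.568) for ATRX. As for the ZNF genes, the adjusted p-values of the fit with the run are uncertain. TRIM28 and SETDB1 had introns only: TRIM28 was at WT means of 0.565, 0.860, 0.861 and 0.540 in introns 2, 6, 7 and 12, with changes of -0.091, -0.028, 0.034 and 0.126, and SETDB1 intron 21 at 0.102 with a change of 0.005. None of the 48 introns of 16 listed genes was called by limma.

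Zinc finger genes with other names were measured from a further list. The body signal of 10 genes was tested, with ZSCAN, ZKSCAN, ZBTB or ZFP symbols or named singly (SP1 and SP3 among them). Of these, 8 were above and 2 below 0, beside 66.9% and 33.1% of all genes, with a median of 0.24 against 0.17. Limma called 0 in either fit, beside 0% of all genes without the run. With the run it called 8.68% of all genes higher and 5.83% lower. With 10 genes these counts are near the shares of all genes. Their 27 introns in 17 genes had a median WT index of 0.349, near that of ZNF introns (0.384) and below that of all introns (0.625). By symbol this list also takes in ZFP36 and its relatives, whose fingers are of the CCCH kind.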

How the data were processed

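Nascent RNA labelled with bromouridine was sequenced from 7 libraries (paired reads of 151 bp). The submitters' processing notes name hg38 and SAMtools 1.11, HOMER 4.8.2, STAR 2.7.7a, Trim Galore 0.6.5, FastQC 0.11.9 and R 4.0.5, without their roles. The authors deposited origin tables of signal, a coverage in bins of 200 bp for the strand that is transcribed, already scaled in a way the labels do not state. Splicing was deposited as a fraction for each intron. Other deposited values, the authors' differences between index columns, were not used. Depth is unknown for both, so no counting interval is given.

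A protein-coding gene (GENCODE 44) was located if it exceeded 3 kb, had no coding gene of its strand within 2 kb, and had its body (at most 100 kb) whole, or at least 10 kb from its start, in a window of its strand. Signal was averaged over the body and tested as log2(signal + 0.0693), the pseudocount being the 10th percentile of non-zero values; 1785 genes with a mean of at least that value were tested. Changes are on this scale, which understates those of low genes. The test was limma (version 3.58.1, with statmod 1.5.0, under R 4.3.3) with trended and robust variances and Benjamini-Hochberg adjustment over all features at 0.05. In simulated body signal of 1785 genes, the fit without the run called 22% of log2 changes of 1 and 76% of those of 2. Among 6537 simulated introns it called 18% of index changes of 0.2 and 44% of those of 0.4. The simulated libraries were independent and held no run effect. The fits with the run or the block were not simulated, so these shares do not describe them.

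Same-numbered libraries deviated from group means together for the splice index (correlations 0.508, 0.207 and 0.214) and the start ratio (0.604, 0.273 and 0.162). For the body signal the correlations were 0.834, 0.574 and 0.025. Deviations from a mean of 3 libraries cancel one another, so the correlations of a measure are not independent. They do not show that same-numbered libraries belong together. The main fit of each measure did not pair libraries, and the replicate number as a block was an alternative fit. The pairs numbered 1 and 3 share a run. What the run number stands for is not given, and it was read from the splice table and assumed to hold for the origin tables.

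Named genes were the 4 with the highest WT signal, up to 5 with the largest rise and 5 with the largest fall among genes with non-overlapping groups and a signal above the median of all genes, up to 6 called with the run as a covariate, 3 introns at each end of the WT index and 4 with the largest rise and fall among non-overlapping introns, and up to 4 genes with both measures. ZNF777, ZNF438, the introns of ZNF431, ZNF561 and ZNF564, AURKC, C19orf18, EZH2 and RHEB and the remaining genes of the chromosome 19 clusters were named after their values were seen. Members, lists and comparisons were chosen with earlier results of these data known. Lists are described by counts and medians and were not tested. Start-site tables without gene names were not used here. One called gene of the corepressor list is not reported here.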

Additional observations from a re-analysis of the deposited data

How the results depend on the processing

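Body signal. With the replicate number as a block, although the libraries numbered 2 do not share a run, 82 genes were called higher and 57 lower (ZNF 1 and 5). With the block and libraries centred on their medians, 26 and 60 were called (ZNF 0 and 5). With the run as a covariate 155 and 104 were called (ZNF 1 and 9), and 23 and 84 (ZNF 0 and 6) with libraries centred too. With no filter, and with centred libraries, 2 genes were called lower. The median change of ZNF genes was -0.19 with libraries centred, -0.11 with trimmed mean scaling, -0.22 with run and centring and -0.16 in the first 3 kb; that of chromosome 19 members was -0.66, -0.58 and -0.64 under the first 3, -0.27 with a pseudocount of 1, -0.32 with CFAP20-KO replicates 2 and 3 averaged and 0.27 without the distal cluster (added after the data were seen); that of other members was -0.15, -0.066 and -0.10 under the scalings and 0.15 without the first 2 kb. Chromosome 19 minus other members in median log2 signal was 0.32 in WT with a pseudocount of 1, 0.22 in WT and 0.52 in CFAP20-KO without the first 2 kb, 0.54 and 0.74 in the first 3 kb, and 1.12 in WT without genes that overlap the opposite strand.

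Start ratio. The block gave 5 genes called higher and 12 lower, and a fit with the run, chosen after seeing the data, 12 and 228, 6 of them ZNF. With genes of at least 20 kb chromosome 19 minus other members was 1.11 in WT and 0.97 in CFAP20-KO.

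Splice index. Block and centring called 17 introns higher and 17 lower, run and centring 36 and 24, with 0 ZNF introns. The block alone changed no call. As means per gene, chromosome 19 minus other members was -0.041 in WT and -0.065 in CFAP20-KO.

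ZNF408 was at 0.065 with CFAP20-KO replicates 2 and 3 averaged and at 0.15 without its first 2 kb, ZNF703 at -0.051 with run and centring, and ZNF263 intron 2 at -0.00078 with centring, also in the block, and at -0.012 with run and centring. Causes were not tested.

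Leaving out each library in turn, the median change of ZNF genes ran from -0.13 to 0.036, of chromosome 19 members from -0.78 to -0.31 and of others from 0.032 to 0.14; ZNF408 from -0.54 to 0.28, ZNF703 from -0.15 to 0.47 and ZNF213-AS1 intron 1 from -0.012 to 0.00032. The median index change ran from -0.062 to 0.0048 over ZNF introns, from -0.052 to 0.00067 on chromosome 19 and from -0.066 to 0.0065 elsewhere. Chromosome 19 minus other members ran from 0.27 to 0.52 in WT and 0.31 to 0.42 in CFAP20-KO for body signal, and from -0.049 to -0.025 in CFAP20-KO for the index. For the start ratio the median change ran from -0.62 to -0.10 over ZNF genes, and chromosome 19 minus other members from 0.15 to 0.35 in WT and 0.13 to 0.22 in CFAP20-KO.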
